A study of Mus musculus with 26 samples.

Results

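The libraries described here are from the control mesenteric arteries of a mouse study of pannexin-1. The question is descriptive: which genes normal small resistance arteries express, at what level, and which of them vary from library to library. Of the 26 libraries in the series, 10 control libraries were taken by their labels. They are 3 wild-type libraries (genotype WT, controls of a global Panx1 knockout), 3 Y198F controls (genotype written Y198F-/-), 3 Y308F controls (Y308F-/-) and 1 S205A control (S205A-/-, the control numbered 4). The titles call these libraries controls, and the minus signs are read here as the absence of the amino-acid substitution in pannexin-1, an assumption that the labels do not spell out. The animals were male and 8 weeks old, and no treatment is given. The other 3 S205A controls are not among the libraries described. The series text speaks of vascular trees and of littermate or WT controls, but the sample labels do not tie a library to an animal, so the spread given is that between libraries. No within-group pair of libraries agreed within counting error, with a chi-square per degree of freedom of 13.6 to 85.2 over 9 pairs, so no pair was treated as 1 library deposited again; this does not bear on whether libraries shared an animal.

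Mesenteric arteries are small muscular arteries that carry blood to the gut and set much of the resistance to flow. Their wall is a layer of contractile smooth muscle bounded by elastic laminae, lined inside by endothelium and wrapped outside by an adventitia of fibroblasts, nerves and fat. Smooth muscle contracts when calcium activates myosin light chain kinase and the myosin heads pull on actin. Endothelial cells oppose this with nitric oxide and with signals passed to the muscle through gap junctions. Pannexin-1 is a membrane channel that releases ATP, and its phosphorylation sites are the subject of the series.

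The libraries held 17304603 to 23079721 counts. A gene's level is given in TPM, a measure of transcript share: its count is divided by its exon length and scaled to the same total in every library. The variation of a gene is given as the coefficient of variation (CV) of its normalized count over the 10 libraries, the SD divided by the mean after the variance expected from counting had been subtracted. Counts of the genes of a list that were highest or lowest in a library are on normalized counts unless TPM is named. In bulk tissue, fewer cells of a type and less RNA per cell cannot be told apart. Principal components of log2 normalized counts set 2 libraries apart: WT 3 had the highest score on the first (43.9, against -26.0 to 22.5 in the other libraries, 31.1% of the variance) and Y308F control 1 on the second (43.5, against -16.3 to 3.0, 18.3% of the variance). WT 3 held the highest levels of fat genes and Y308F control 1 those of endothelial and elastic fibre genes, and the main values that rest on either library are given also without it.

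Of 21651 nuclear protein-coding genes, 11189 reached 1 TPM in all 10 libraries and 2007 in some of them. No count in any library was recorded for 4550, and 5716 had 3 or fewer counts in every library. At the high end, 513 genes stood at 100 TPM or more in all 10 libraries and 33 averaged 1000 TPM or more. The 20 leading genes together held 12.7% ± 0.896 (SD, n = 10) of nuclear protein-coding TPM and the leading 1000 held 58.0%.

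Contractile and matrix proteins led this list. Acta2, smooth muscle α-actin (chromosome 19, 34217737 to 34232990, minus strand, GRCm39), averaged 9673 TPM ± 1739 (SD, n = 10), with 6290 in the lowest library, a median of 10049 and 12150 in the highest. It was the first nuclear protein-coding gene in 10 of 10 libraries and alone held 2.13% ± 0.335 (SD, n = 10) of nuclear protein-coding TPM. Myl9, the regulatory light chain of smooth muscle myosin, averaged 4935 TPM ± 779, and Myh11, its heavy chain, 4730 TPM ± 970 (SD, n = 10 for each). Myl9 stood above Myh11 in 5 of the 10 libraries, so the order of this pair lay within their spread, while Acta2 stood above Myl9 in 10 of 10.

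The genes that followed fell into 3 roles. Other parts of the contractile and cytoskeletal apparatus were Csrp1, a LIM-domain protein of actin bundles (4015 TPM ± 708), the cytoplasmic actin Actb (2886 ± 366), the essential myosin light chain Myl6 (2765 ± 380), the actin crosslinker Flna (2587 ± 537) and the tropomyosin Tpm2 (2012 ± 368). Secreted and matrix proteins were Mgp, an inhibitor of vascular calcification (3509 ± 813), Eln, the elastin precursor (2354 ± 1010), the small secreted protein Cytl1 (2100 ± 681), the collagen-binding proteins Sparc (2056 ± 430) and Sparcl1 (2015 ± 415), and the proteoglycan Bgn (1442 ± 304). The remainder were genes that most cells use, among them the translation factor Eef1a1 (2044 ± 199), Ptma (1790 ± 169), Vim (1750 ± 190), Tmsb4x (1513 ± 178) and the ferritin heavy chain Fth1 (1438 ± 164), all in TPM as mean ± SD over n = 10. Eln had the widest relative spread of the 20, from 898 TPM in WT 3 to 3885 in Y198F control 1, with a CV of 0.400, and Ptma the narrowest, with a CV of 0.0668.

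**Figure D1:**
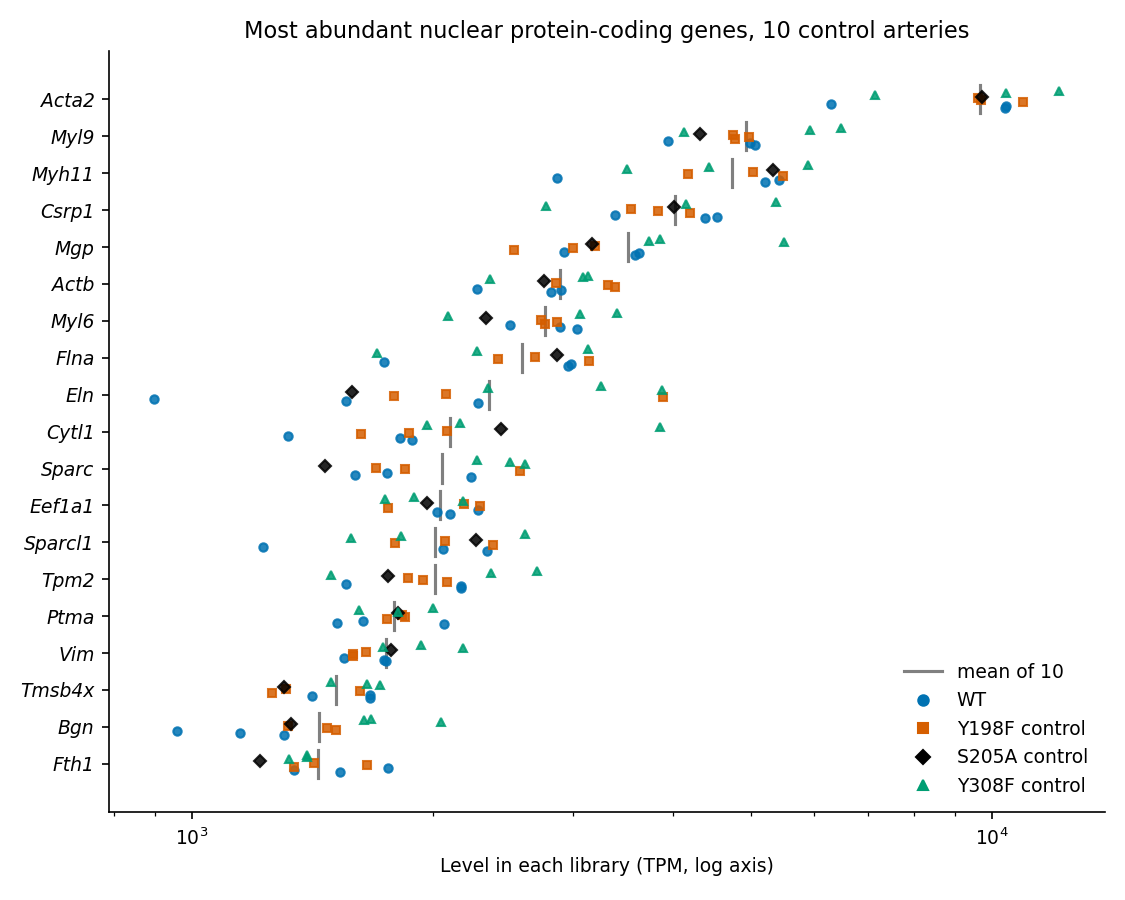
Level in TPM (log axis) of the nuclear protein-coding genes with the highest means in 10 control mesenteric artery libraries, as named in the text. Each symbol is a library, its shape and colour the control group, and the grey bar is the mean of 10. Acta2 has the highest mean, its lowest library (6290 TPM) lying below the highest of Myl9 (6473), and most genes below Myh11 overlap with their neighbours; Eln spreads from 898 to 3885 TPM.

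Genes outside the nuclear protein-coding class took a large share of TPM, and much of it came from short or repeated features. Nuclear protein-coding genes held 85.3% ± 1.35 of the counts but 45.2% ± 2.92 of TPM, and the mitochondrial genome held 5.63% ± 1.17 of the counts and 17.9% ± 3.10 of TPM (SD, n = 10). The highest TPM of any feature, 134176 ± 30936, belonged to Gm55118, annotated as a miRNA gene of 57 bases, all of which lie within the exons of another gene, Gm61125. The ribosomal RNA gene Rn18s-rs5 followed at 67623 TPM ± 24030, although the labels give the molecule as polyA RNA. Next came Atp6-ps (33477 ± 6698), mt-Co1, a subunit of cytochrome oxidase (28414 ± 4565), and Gm28661 (25012 ± 4803).

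Several of these values were shared between copies. Gm28661, on chromosome 1, had nearly the same count as mt-Co2 in every library, with a ratio of mt-Co2 to its copy of 0.9988 to 0.9997. The ratio of mt-Co3 to Gm28437 was 0.9986 to 0.9998, that of mt-Nd4l to Gm10222 was 0.9964 to 0.9986, and that of mt-Atp6 to Atp6-ps was 0.6684 to 0.7070. The levels of these pairs, and with them part of the 14.5% ± 2.13 of TPM in pseudogenes, cannot be assigned to one copy or the other.

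All 16 smooth muscle contractile genes were above 1 TPM in all 10 libraries, and together they summed to 24151 TPM in the lowest library, a median of 35009 and 42982 in the highest. After Acta2, Myl9, Myh11, Myl6, Flna and Tpm2 came Tpm1 at 1383 TPM ± 235, the intermediate filament Des at 1058, Lmod1, which nucleates actin filaments, at 872, the actin-binding calponin Cnn1 at 863 and caldesmon Cald1 at 842. The kinase that starts contraction, Mylk, averaged 693 TPM. The median CV of the list was 0.174, above the 0.148 over all 12487 genes with a mean normalized count of at least 50. Without Y308F control 1 it was 0.152 and without WT 3 0.164. On normalized counts WT 2 was the highest library for 10 of the 16 genes (8.81% of all genes were highest there) and Y308F control 1 the lowest for 11 (17.0% of all genes were lowest there). On TPM the highest was Y308F control 3, for 11 of the 16, where 15.8% of all genes were highest on that scale.

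The lowest library of the list also depended on the scale. Summed TPM was lowest in WT 3, at 0.690 of the median library, followed by Y308F control 1 at 0.730. On normalized counts per exon length the order was the other way round, with WT 3 at 0.812 and Y308F control 1 at 0.743 of the median library. Over nuclear protein-coding TPM alone the values were 0.795 and 0.698. Mitochondrial genes were among the features that moved with this: WT 3 was the highest library for 8 of the 13 mitochondrial mRNA genes on normalized counts and Y308F control 1 the lowest for 13, where 17.0% of all genes were highest in WT 3 and 17.0% lowest in Y308F control 1; their part in the difference between scales was not tested.

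Tagln, the smooth muscle protein SM22α and usually among the most abundant transcripts of this tissue, stood last of the 16 at 62.1 TPM ± 16.8 (SD, n = 10). Only 33.3% of its exon bases are free of another gene's exons; the rest lie under Pcsk7 and Gm48529, while 100% are free of other genes on its own strand. Divided by the free bases alone, its mean was 204 TPM. Cnn1 was next in this respect within the list, with 64.9% of its exon bases free. Of the 21651 nuclear protein-coding genes, 855 (3.95%) had less than 50% of their exon bases free, and none of the 20 most abundant was among them; of the 25 most variable genes described further on, Gpd1 was, with 46.9% free. The level of Tagln given here is therefore uncertain.

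Transcription of the contractile genes is driven by serum response factor, which binds the CArG box, together with myocardin. Srf averaged 64.4 TPM, from 44.8 to 81.0, and Myocd 46.1 TPM, from 27.7 to 62.4. Klf4, a factor that represses contractile genes, averaged 149 TPM ± 60.3 and was highest in Y308F control 1. Promoter windows of 300 bases (250 before the start and 50 after it, RefSeq, GRCm38.p6) were at hand for 13 of the 16 contractile genes. The CArG box, searched by its consensus, which reads the same on either strand, was found in 2 of them, Myl9 and Myl6, and in 488 of all 27025 genes with a window (1.81%; 535 of 32851 windows, 1.63%). The Myl9 window is shown because Myl9 is the second most abundant gene and holds the box; it lies at chr2:156775214-156775513 on the plus strand of that build, with the CArG box in capitals, 161 bases before the start.
Myl9: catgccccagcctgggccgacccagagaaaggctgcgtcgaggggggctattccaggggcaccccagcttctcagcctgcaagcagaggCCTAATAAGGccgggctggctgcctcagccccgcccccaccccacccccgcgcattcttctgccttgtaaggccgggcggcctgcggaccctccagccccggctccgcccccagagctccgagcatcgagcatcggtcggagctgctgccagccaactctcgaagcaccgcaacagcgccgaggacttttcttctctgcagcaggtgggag
A match of letters is a description of the window and not a binding site, and the absence of one says only that these letters are not in it.

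Among the marker lists of cell types and matrix, elastic fibre and collagen genes had the next highest sums. The 10 elastic fibre genes summed to 1854 TPM in the lowest library (WT 3), a median of 3937 and 6960 in the highest (Y308F control 1). After Eln, Ltbp4, which guides elastic fibre assembly, averaged 718 TPM ± 285, the fibulin Fbln2 268 ± 96.2, the crosslinking enzyme Lox 218 ± 71.9 and Fbln5 151 ± 76.8 (SD, n = 10). On normalized counts Y308F control 1 was the highest library for 5 of the 10 genes, Fbln5 among them with 16325 against 8765 in the next library. WT 1 was the highest for 4 (9.75% of all genes), and WT 3 was the lowest for 6 (15.4% of all genes). The list had a median CV of 0.336. Without Y308F control 1 the median CV was 0.238, the median sum 3854 TPM and the highest sum 5894. Y308F control 1 was the highest library for 18.6% of all 12487 genes, the largest share of any library, against which its 5 of 10 is to be read.

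The 14 collagen genes summed to a median of 3666 TPM, from 2348 to 5161, with a median CV of 0.206. Basement membrane collagens led: Col4a1 averaged 673 TPM ± 152, Col18a1 663 ± 141 and Col4a2 553 ± 123, ahead of the fibrillar Col3a1 (444 ± 129) and Col1a1 (416 ± 136; SD, n = 10). Col4a1 stood above Col18a1 in 4 of 10 libraries, so these were not separated by their spread. On normalized counts WT 1 was the highest library for 9 of the 14 (9.75% of all genes were highest there), while on TPM Y198F control 1 was the highest for 8 of the 14 (11.5% of all genes) and in the sum.

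The labelled tissue carried the markers of an arterial wall. The 12 general endothelial genes were all above 1 TPM in all libraries and summed to a median of 2436 TPM. Pecam1, an adhesion molecule of endothelial junctions, averaged 751 TPM ± 220, the tight junction protein Cldn5 459 ± 225, Vwf, the clotting factor stored by endothelium, 217 ± 115 and Cdh5, VE-cadherin, 212 ± 85.3 (SD, n = 10). Kdr and Emcn, which are strong in capillaries and veins, stood at 7.68 and 3.10 TPM. The 8 arterial endothelial genes summed to a median of 1258 TPM, led by Sema3g (445 ± 214), Gja4 (332 ± 66.2), Gja5 (217 ± 90.0) and Bmx (139 ± 41.4). The 4 venous genes summed to 117 TPM, nearly all of it in Nr2f2 (58.4 ± 10.4) and Ephb4 (48.0 ± 14.8), and the venular receptor Ackr1 averaged 5.22 TPM.

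Y308F control 1 stood above the other libraries for the general and arterial endothelial lists. The venous list did not set it apart, with 131 TPM in sum against 125 in the next library. Its normalized count of Cldn5 was 9871, while the other 9 libraries lay between 2974 and 4217. On normalized counts it was the highest library for 10 of the 12 endothelial genes and 7 of the 8 arterial ones, and on TPM for 10 and 6, where 17.2% of all genes were highest there. Its summed endothelial level was 4979 TPM against 1462 to 2719 in the others. Without it the median CV of the endothelial genes went from 0.370 to 0.172 and the median sum from 2436 to 2373 TPM; for the arterial genes the median CV went from 0.272 to 0.179. As given above, 18.6% of all genes were highest in this library. WT 3 was the lowest library for 9 of the 12 on normalized counts, and for 15.4% of all genes. Mesothelial genes, which mark the membrane covering the mesentery, were also highest in Y308F control 1 at 35.0 TPM in sum, against a median of 8.18 and, without that library, a highest sum of 25.6; their part in the endothelial difference was not tested.

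Lymphatic vessels run beside mesenteric arteries, and their genes were present at a lower level. The 6 lymphatic endothelial genes summed to a median of 251 TPM, from 115 to 640, of which the chemokine Ccl21a made up 191 TPM ± 134 on average; Lyve1, which macrophages also express, averaged 25.5 and the defining transcription factor Prox1 2.14. The highest sum was in Y308F control 2. The 9 pericyte and mural cell genes summed to a median of 2280 TPM, led by Mcam (1114 ± 212), the G-protein regulator Rgs4 (584 ± 147) and Notch3 (178 ± 56.1), all of which smooth muscle shares. Rgs5 differed from the rest of that list with a CV of 0.757, from 54.0 to 368 TPM, highest in Y308F control 2.

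Adventitial fibroblast genes summed to a median of 2226 TPM, from 1286 in Y308F control 3 to 3484 in WT 1. Gsn, an actin-severing protein, led at 597 TPM ± 253; Ly6c1, at 395 ± 113, and Cd34, at 137 ± 30.3, are shared with endothelium and were highest in Y308F control 1. The fibroblast matrix genes Clec3b (298 ± 123), Dpt (223 ± 82.1) and Dcn (185 ± 70.2) were lowest in Y308F control 3, as were 8 of the 12 genes of the list and 7.57% of all genes. On normalized counts WT 1 was the highest library for 6 of the 12 (9.75% of all genes) and Y308F control 1 for 4 (18.6% of all genes). The median CV of the list was 0.374.

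Nerve sheath genes were low and varied between libraries. The 9 Schwann cell and myelin genes summed to a median of 232 TPM, from 130 to 362, with 8 of 9 above 1 TPM in all libraries; Pmp22, a myelin protein, averaged 92.4 and the glial factor Sox10 16.8 TPM. The median CV was 0.399 over the 8 genes with a mean normalized count of at least 50; 6 of these were highest in WT 3, against 17.0% of all genes. Of 10 neuronal genes, Uchl1, which other cells also express, stood at 45.3 TPM and the peripheral filament Prph at 4.10, while Th, the enzyme of noradrenaline synthesis in sympathetic neurons, had 0 counts in all 10 libraries.

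Immune cells left small signals. The 11 macrophage genes summed to a median of 103 TPM, lowest in Y198F control 1 and reaching 147 in Y308F control 2. Lysozyme Lyz2 stood at 28.3 and the complement gene C1qa at 15.0 TPM on average. Lyve1, counted above among the lymphatic genes, is also in this sum and averaged more than C1qa. The lymphatic sum was highest in the same library. Antigen presentation genes, led by Cd74 at 32.6 TPM, summed to 65.2. B lymphocyte and plasma cell genes summed to 31.7 TPM, mast cell genes to 5.09 and T lymphocyte genes to 4.04, all as medians. Of the 6 neutrophil genes S100a9, Ly6g, Mpo and Retnlg had no more than 3 counts in any library.

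Genes of neighbouring organs were close to absent. Of 13 pancreatic acinar genes, Prss2, Cpa1, Cela2a, Try4 and Clps had no more than 3 counts in any library, and of the list's median sum of 10.5 TPM the largest part was Cpb1, at 6.80 TPM on average. Of 7 intestinal epithelial genes Epcam, Cdh1, Krt20 and Fabp2 were likewise at 3 counts or fewer, and Lgals4 averaged 8.58 TPM. Brown fat genes summed to 15.0 TPM and Ucp1, which defines that tissue, was at 3 counts or fewer, as was Myh4 of skeletal muscle.

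**Figure D2:**
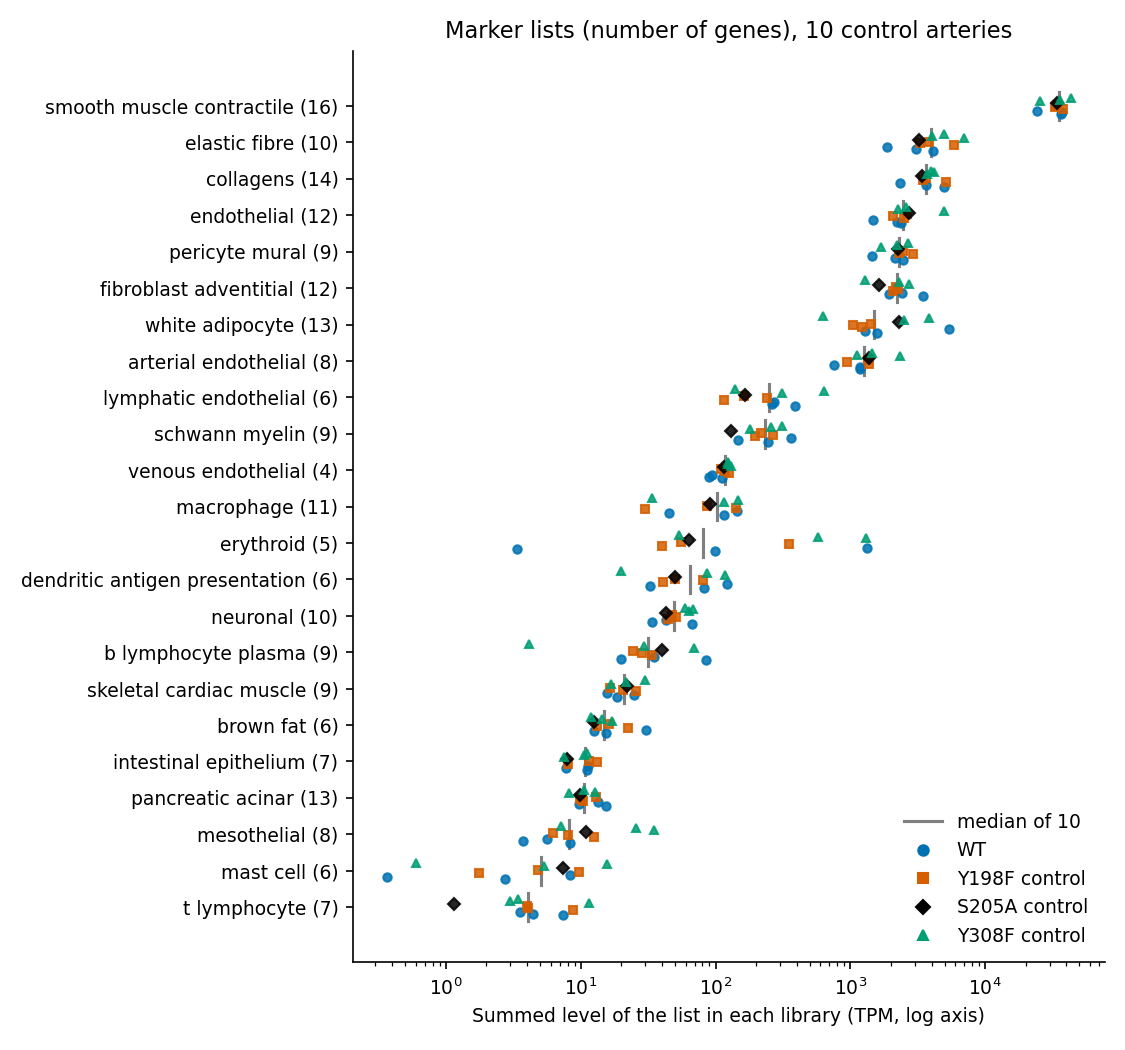
Summed TPM (log axis) of 23 marker lists in each of 10 control libraries, with the number of genes in brackets. Symbols give the control group and grey bars the median of 10. Smooth muscle contractile genes lie highest at a median of 35009 TPM; white adipocyte genes reach 5402 in WT 3, endothelial genes 4979 in Y308F control 1, and erythroid genes run from 3.39 to 1328.

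Among the receptors listed as constrictors, the ATP-gated channel P2rx1 was far ahead, at 857 TPM ± 190 (SD, n = 10), 532 in the lowest library and 1120 in the highest. Npy1r, the receptor for the sympathetic co-transmitter neuropeptide Y, followed at 88.9 TPM ± 25.1, and P2rx1 stood above it in 10 of 10 libraries. Receptors for endothelin (Ednrb, 25.9, from 12.6 to 42.5), vasopressin (Avpr1a, 23.6 ± 12.3), thromboxane (Tbxa2r, 23.4 ± 4.30) and angiotensin (Agtr1b, 22.0 ± 5.67) formed a group that overlapped. Which cells of the wall carry each receptor, and whether each one, Ednrb included, constricts this artery, was not tested. Of the α1-adrenoceptors, which receive noradrenaline, Adra1d averaged 18.9 TPM, Adra1a 6.99 and Adra1b 0.820. In all, 16 of the 20 listed constrictor receptors were above 1 TPM in all libraries.

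On the relaxing side, Nos3, the endothelial nitric oxide synthase, averaged 177 TPM ± 88.7 and was highest in Y308F control 1 (412 TPM) with the other endothelial genes. The 2 subunits of its muscle target, soluble guanylyl cyclase, stood close together, Gucy1a1 at 108 TPM ± 22.8 and Gucy1b1 at 102 ± 18.1. The phosphodiesterase Pde3a averaged 80.6 TPM, the CGRP receptor parts Calcrl and Ramp1 52.0 and 42.4, and the prostacyclin receptor Ptgir 45.8 TPM. Of the β-adrenoceptors, Adrb1 averaged 0.813 TPM, and Adrb3, at 10.7 TPM, is an adipocyte gene as well and was highest in Y308F control 2.

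Potassium channels, which set the resting voltage of the muscle, were led by Kcnmb1, the regulatory subunit of the large calcium-activated channel, at 117 TPM ± 21.5, and by the voltage-gated Kcna5 at 111 ± 23.5; Kcnmb1 stood above Kcna5 in 4 of 10 libraries. The pore of the large channel, Kcnma1, averaged 13.4 TPM. Among calcium and cation channels the inositol trisphosphate receptor Itpr1 (65.7 ± 14.6), the endothelial and muscle channel Trpv4 (49.5 ± 22.5), the store sensor Stim1 (42.7 ± 5.85), its channel Orai1 (33.7 ± 11.2), the stretch-gated Piezo1 (30.9 ± 9.45) and the L-type pore Cacna1c (25.5 ± 6.10) led. Stim1 was among the steadiest of them, with a CV of 0.0834. Trpv4, Orai1 and Piezo1 were highest in Y308F control 1. On normalized counts that library was the highest for 4 of 18 calcium and cation channel genes (18.6% of all genes). It was also the lowest for 4 (17.0% of all genes).

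The gap junction genes Gja4 (connexin 37) and Gja5 (connexin 40) averaged 332 and 217 TPM, with Gja4 the higher in 9 of 10 libraries, and Gjc1 averaged 27.0 TPM. Panx1, the gene under study in the series, averaged 1.48 TPM ± 0.409 (SD, n = 10), from 0.810 in Y308F control 3 to 2.18 in WT 1, Panx2 averaged 0.0855 TPM, and Panx3 had 0 counts in all 10 libraries.

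Variation among the control libraries was small for most genes and large for a few groups. Of the 12487 genes, 2776 (22.2%) had a CV below 0.1, and the middle of the distribution ran from 0.105 (25th percentile) to 0.221 (75th percentile). A CV above 0.5 was reached by 434 genes (3.48%) and above 1 by 61. By list, the median CV was 1.40 for 4 haemoglobin genes, 0.940 for 13 white adipocyte genes, 0.688 for 8 glucocorticoid and metallothionein genes (0.433 without WT 3), 0.676 for 14 circadian genes, 0.607 for 8 macrophage genes and 0.551 for 11 immediate early genes. It was 0.204 for mitochondrial mRNA genes and 0.117 for 13 housekeeping genes. The steadiest well-expressed genes were the cap-binding protein Eif4e2 (CV 0.0198), Pa2g4 (0.0246), Rbx1, a ubiquitin ligase subunit (0.0254), Habp4 (0.0282) and Tbc1d20 (0.0294). These are the lowest values picked after the counting variance had been subtracted. Whether they differ from the next lowest was not tested.

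**Figure D3:**
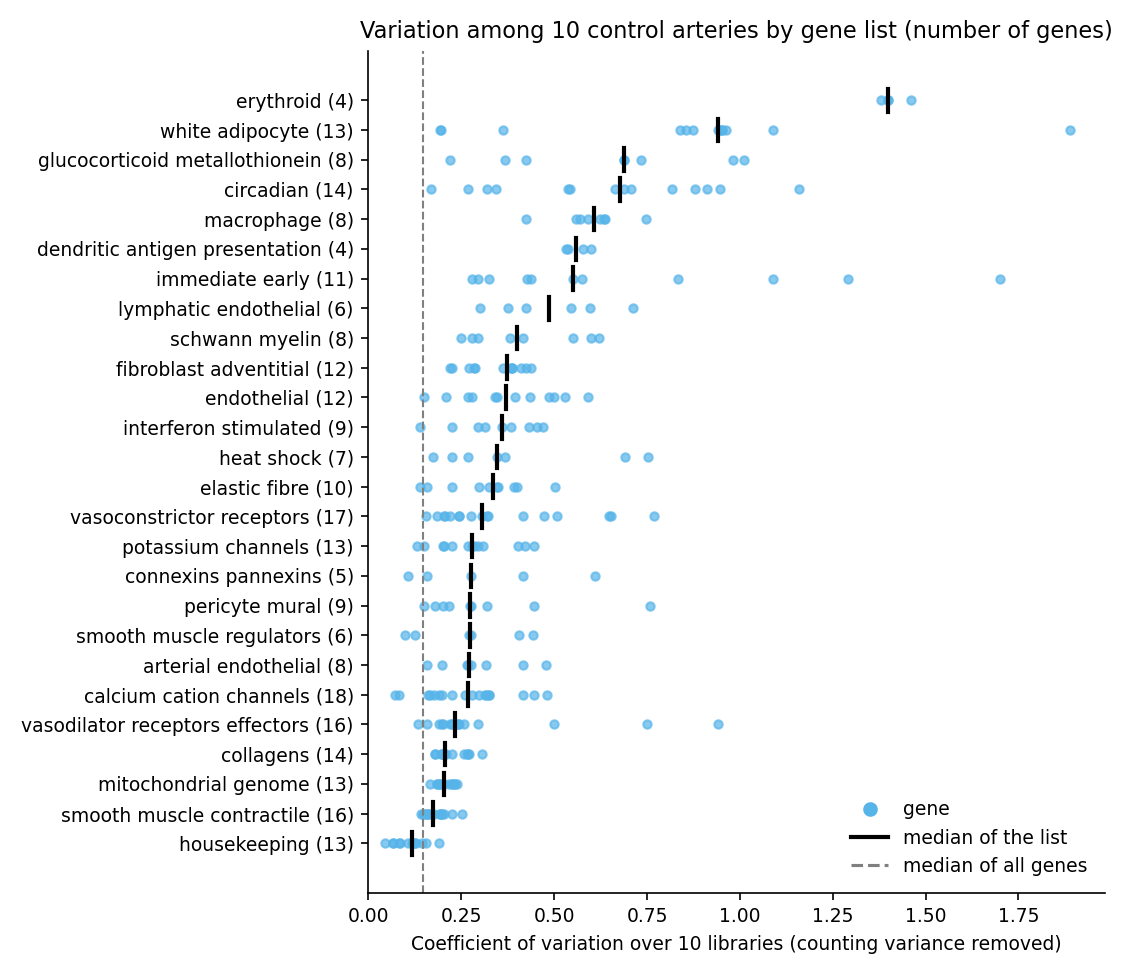
Coefficient of variation over 10 control libraries of each gene (points) by list, with the number of genes of mean normalized count 50 or more in brackets. Black bars are list medians and the dashed line is the median of all 12487 genes, 0.148. Erythroid and white adipocyte genes lie farthest to the right (medians 1.40 and 0.940), housekeeping genes to the left (0.117).

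The 25 most variable protein-coding genes had CVs of 1.33 to 2.04. They were not tested for a shared theme, and 1 of them, Lep, is in the list of white adipocyte genes. They include Lep, the satiety hormone leptin; Fasn, Scd1, Elovl6 and Thrsp, of fatty acid synthesis and its control; Gpd1 and Dgat2, of triglyceride synthesis; Pcx, the pyruvate carboxylase that feeds lipogenesis; and Mlxipl, a transcription factor that turns lipogenic genes on in response to sugar. WT 3 was the highest library for 20 of the 25, 82 of the leading 100 and 237 of the 407 nuclear protein-coding genes with a CV above 0.5 (58.2%), against 17.0% of all genes. Y308F control 3 was the lowest library for 16 of the 25, against 7.57% of all genes. These genes were picked by their spread, and kept by their mean, over the same libraries. A library far from the rest is therefore likely to be the highest or lowest for many of them, so these counts describe the set and test nothing. The last gene inside the 25, Mrap, had a CV of 1.33 and the first outside, Pparg, the master regulator of adipocytes, 1.30.

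Fasn had a normalized count of 1194 in the lowest library (Y308F control 3), a median of 5299 and 46628 in WT 3, where the next library had 6985. WT 3 thus stood 8.80-fold above the median library, and the other 9 did not reach it. Scd1, stearoyl-CoA desaturase, ran from 1426 through a median of 12970 to 111751, again with WT 3 highest and 23047 next. Lep ran from 27.5 through 107 to 2326.

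Adipocyte markers showed a second high library. Adipoq, the adipocyte hormone adiponectin, had a normalized count of 5023 in WT 3 and 3908 in Y308F control 2, then 1609 in S205A control 4, 1528 in Y308F control 1, and 165 in Y308F control 3; the 5 remaining libraries lay between 665 and 952. The summed level of the 13 white adipocyte genes was 5402 TPM in WT 3, 3804 in Y308F control 2, a median of 1495, and 631 in Y308F control 3. On normalized counts WT 3 was the highest library for 12 of the 13, the exception being Adrb3, and on TPM for 10 of the 13; of all genes, 17.0% and 6.05% were highest there on these scales. Without WT 3 the median CV of the list was 0.661 in place of 0.940, 300 genes had a CV above 0.5 in place of 434, and 9 of the 25 leading variable genes were still among the leading 25.

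Not all genes of the adipocyte list varied in this way. Plin4 and Slc2a4, the insulin-regulated glucose transporter, both of which muscle also expresses, had CVs of 0.195 and 0.194. Cfd, the adipocyte complement factor adipsin, and Car3 had CVs of 0.946 and 0.874 and averaged 863 and 387 TPM.

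**Figure D4:**
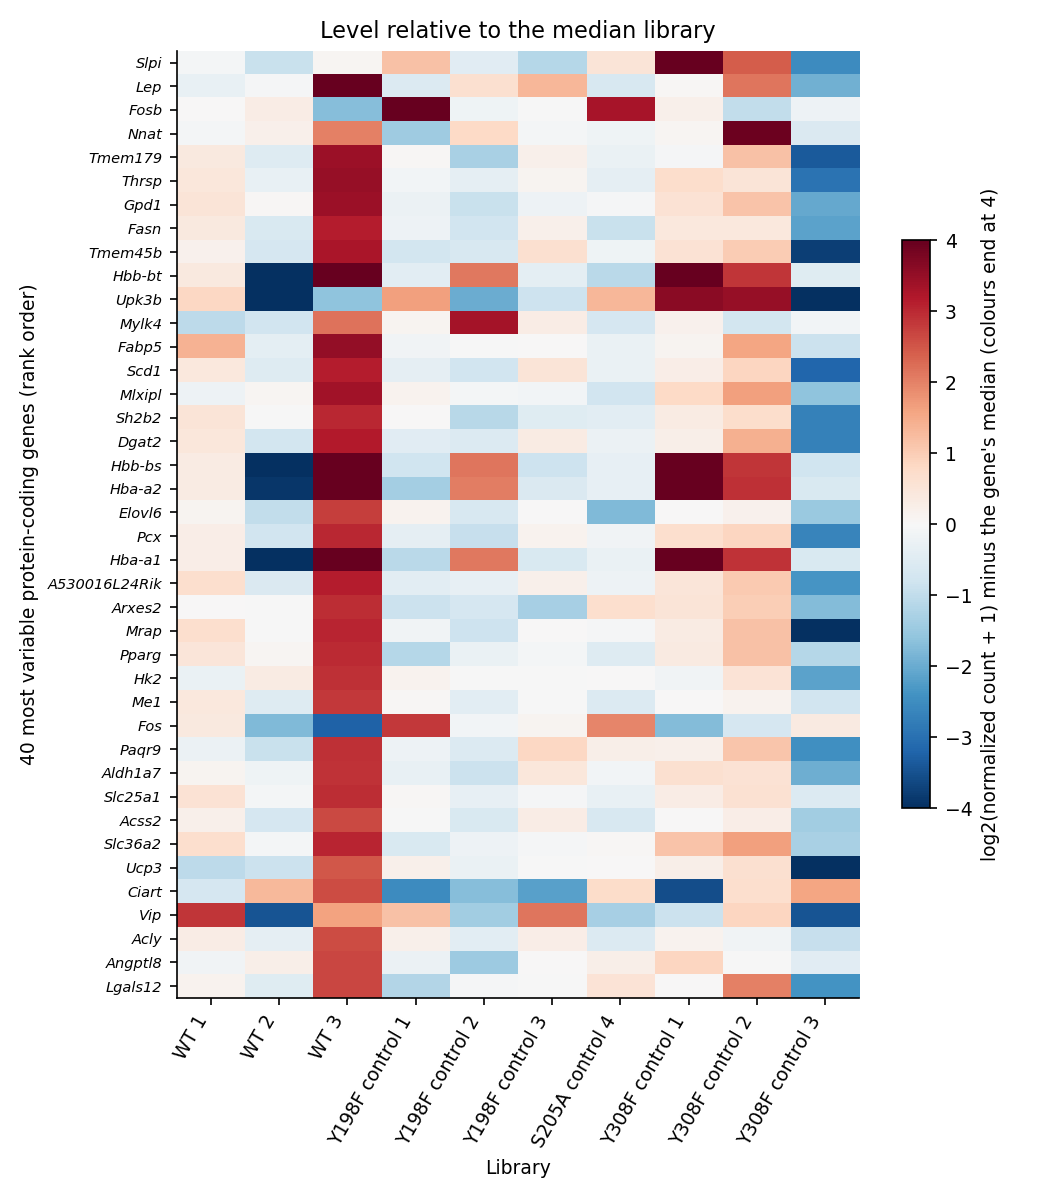
Heat map of the 40 most variable protein-coding genes (rows, in rank order) in 10 control libraries (columns). Colour is log2(normalized count + 1) minus the gene's median over the 10 libraries, and colours end at 4 in either direction. Most rows are darkest red in WT 3 and blue in Y308F control 3; the haemoglobin rows are also red in Y308F control 1, and Fosb and Fos are red in Y198F control 1 and S205A control 4.

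Haemoglobin genes made a second block of the 25. Hba-a1 ran from a normalized count of 9.29 in WT 2 through a median of 189 to 3538 in WT 3, with 3008 in Y308F control 1, 1376 in Y308F control 2 and 800.0 in Y198F control 2. The summed level of 5 erythroid genes was 1328 TPM in WT 3 and 3.39 in WT 2. Hbb-bs and Hbb-bt had 0 counts in WT 2. The Hba-a1 and Hba-a2 genes are near-identical copies, as are Hbb-bs and Hbb-bt, and the split of reads within each pair is uncertain. Without WT 3 the median CV of these genes was 1.54, and without Y308F control 1 it was 1.63.

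Other members of the 25 followed different libraries. Slpi, a protease inhibitor of epithelia, had 434 in Y308F control 1 and a median of 16.2, with a CV of 2.04 that was 1.14 without that library, and the mesothelial gene Upk3b had 253 there, 231 in Y308F control 2 and 0 in WT 2. Nnat, an imprinted gene, had 1969 in Y308F control 2 and a median of 129. Mylk4, a myosin kinase of striated muscle, had 602 in Y198F control 2 and 271 in WT 3. All values are normalized counts.

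Immediate early genes are switched on within minutes of a stimulus. Fos had a normalized count of 8672 in Y198F control 1, 4708 in S205A control 4 and 1596 in WT 1, with 128 in WT 3, the lowest library, and a median of 1229. Fosb, one of the 25, followed it with 1612 and 862 in the same 2 leading libraries. Summed over 12 genes the level was 2304 TPM in Y198F control 1 and 1649 in S205A control 4, against a median of 863. Jun and Dusp1 had CVs of 0.326 and 0.551.

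Heat shock genes had their own high library. Hspa1a, an inducible chaperone, had a normalized count of 4070 in WT 2, against 720.0 to 1858 in the other libraries, and Hspa1b, a near-identical copy, 4830. On normalized counts 7 of the 7 heat shock genes were highest in WT 2, where 8.81% of all genes were highest, and 6 were lowest in Y308F control 2, where 11.2% of all genes were lowest. On TPM 5 of the 7 were highest in WT 2, against 0.993% of all genes. Fos, at 363, was below its median in WT 2.

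The circadian genes varied between the controls: of 14, 8 were highest in WT 3 (17.0% of all genes), which was also the library highest for most fat genes, and 9 were lowest in Y308F control 1 (17.0% of all genes). The clock runs on the activators Bmal1, Clock and Npas2, which switch on their own repressors Per, Cry and Nr1d and the output factors Dbp and Tef through the E-box. Bmal1 had normalized counts of 934 to 1024 in the 3 Y198F controls, 1234 in Y308F control 1 and 427 in WT 1, and 26.7 to 177 in the other 5 libraries. Dbp had 90.3 to 222 in the Y198F controls and 64.4 in Y308F control 1, against 1953 to 4751 in the other 6. Nr1d1, which represses Bmal1, stood at 943 to 2247 in the Y198F controls and Y308F control 1 and at 5732 to 6959 in the others. Cry2, by contrast, had a CV of 0.168. The labels give no time of collection.

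Windows of the same 300 bases were at hand for 12 of the 14 circadian genes, and the E-box CACGTG, which reads the same on either strand, was found for 4 of them (Cry1, Per1, Tef and Ciart) and in 2187 of all 27025 genes with a window (8.09%; 2349 of 32851 windows, 7.15%). Ciart, a repressor of the clock, is shown because its window holds 3 such boxes and its normalized count ran from 7.73 in Y308F control 1 to 618 in WT 3; Per1, which ran from 404 to 3485 between the same libraries, holds 1. The Ciart window is at chr3:95882179-95882478 on the minus strand and the Per1 window at chr11:69098699-69098998 on the plus strand (RefSeq, GRCm38.p6), with E-boxes in capitals, 116, 58 and 44 bases before the start of Ciart and 166 before that of Per1.
Ciart: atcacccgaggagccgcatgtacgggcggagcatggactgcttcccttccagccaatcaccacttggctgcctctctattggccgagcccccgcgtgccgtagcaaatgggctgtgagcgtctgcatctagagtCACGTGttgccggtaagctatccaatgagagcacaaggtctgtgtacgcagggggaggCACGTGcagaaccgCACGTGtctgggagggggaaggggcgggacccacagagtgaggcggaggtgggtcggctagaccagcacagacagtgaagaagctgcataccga
Per1: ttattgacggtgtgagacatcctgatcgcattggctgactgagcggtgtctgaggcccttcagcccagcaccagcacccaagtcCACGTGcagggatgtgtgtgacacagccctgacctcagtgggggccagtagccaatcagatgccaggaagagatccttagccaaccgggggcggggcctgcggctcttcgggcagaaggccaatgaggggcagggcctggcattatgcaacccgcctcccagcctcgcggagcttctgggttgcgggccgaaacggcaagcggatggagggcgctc

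**Figure D5:**
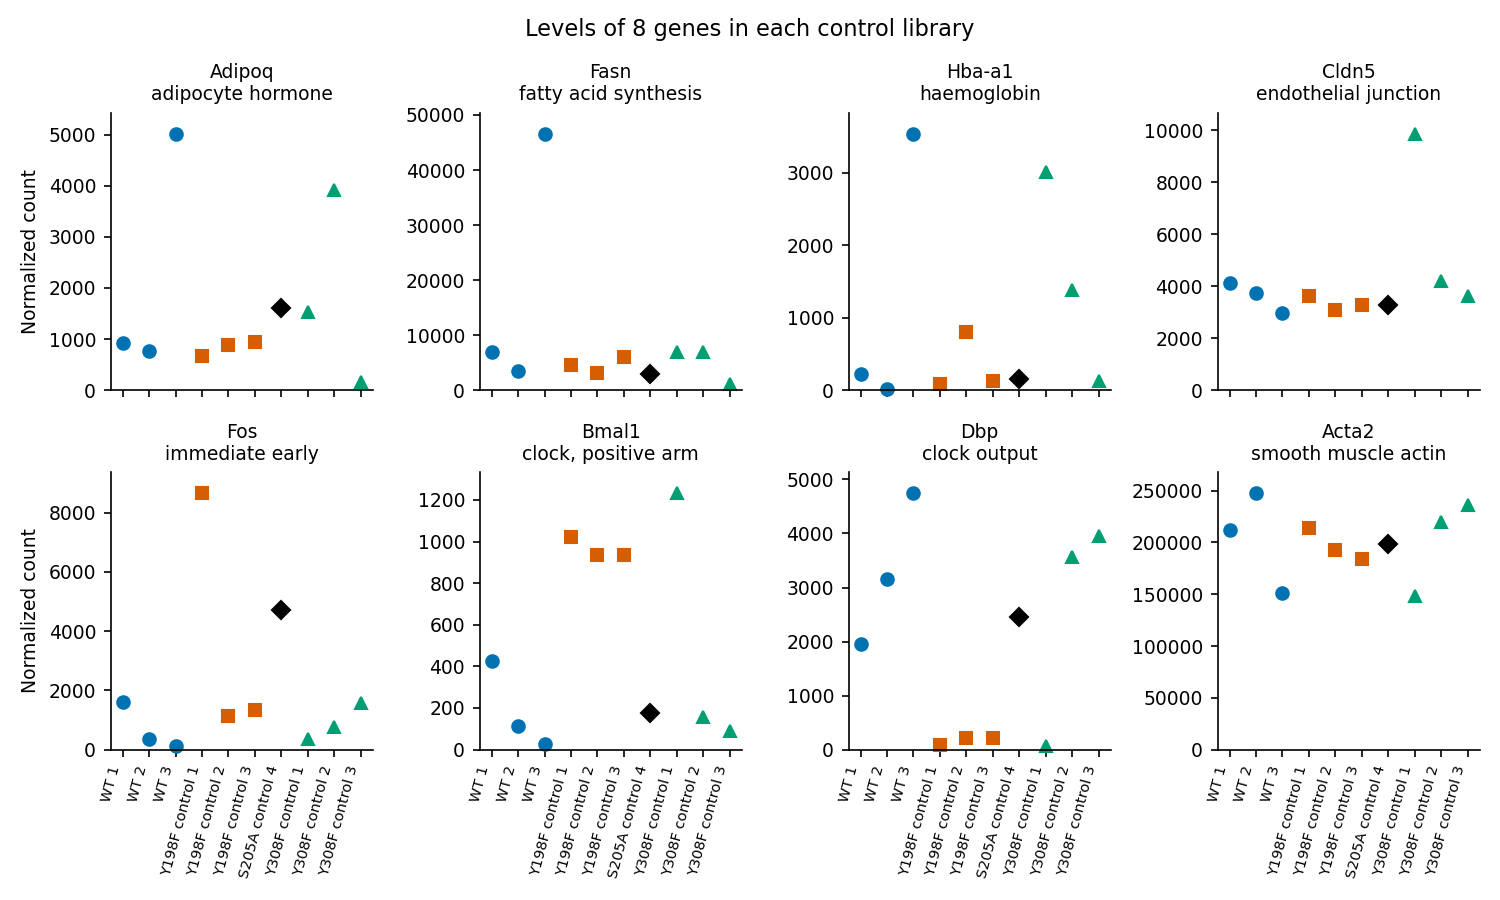
Normalized counts (linear axes from 0) of 8 genes in each of 10 control libraries. Each symbol is a library and its shape and colour the control group. Adipoq and Fasn are highest in WT 3, Cldn5 in Y308F control 1 and Fos in Y198F control 1; Bmal1 is high and Dbp low in the Y198F controls and Y308F control 1, and Acta2 stays between 148710 and 247852.

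Glucocorticoid-responsive genes also differed between libraries. Zbtb16, a transcription factor induced by glucocorticoids, had a normalized count of 2310 in WT 3 and 970.0 in WT 2, against a median of 452, and Tsc22d3 had 3421 and 3262 in those libraries against a median of 977. The metallothionein Mt1 was highest in WT 3 at 803. Its neighbour Mt2 had at most 3 counts in every library; most of its exon bases lie under another gene, and its level is therefore uncertain.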

How the data were processed

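Polyadenylated RNA of 26 mesenteric artery libraries was sequenced as paired reads, and per the labels and the submitters' processing notes the authors mapped them to GRCm39 with STAR 2.7.9a and counted them per gene with featureCounts in Rsubread 2.20.0. Strand and multi-mapping settings are not given in the sources used here. The deposited table of raw counts per gene gave the levels. The deposited table of normalized counts (21031 genes, signal scaled by a size factor, DESeq2 1.46.0) equals the counts divided by 1 factor per library and gave the variation. The authors' tables of comparisons were not used.

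TPM were computed with the union of exons of GENCODE vM39 for 56310 of 57010 identifiers; the rest held 0.0393% of counts. CVs were computed for genes with a mean normalized count of at least 50. Without molecular identifiers, the counting error covers reads only. No groups were contrasted; within-group library pairs were compared by chi-square, and outlying libraries were marked by Dixon's criterion. Text names the 20 most abundant and 25 most variable protein-coding genes, the 5 other leading features, the 5 steadiest with a mean of at least 1000, the leading and floor members of 38 lists (378 of 379 genes matched) and the pannexins; a few genes these rules name are not reported here. Other genes named are list members chosen for their role after values were seen. The libraries and lists were chosen with earlier results of these data known. Alternatives used TMM factors (edgeR 4.0.16, R 4.3.3), other lengths, totals, filters and measures, and other sets of libraries. Tables were handled in Python 3.11.15.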

Additional observations from a re-analysis of the deposited data

Results flagged for a closer look

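A library was marked where the gap to its nearest neighbour took an unusually large share of the range over the 10 libraries, by Dixon's criterion. For normally distributed values chance marks about 1 in 20 sets. The criterion was applied to untransformed sums and normalized counts, for which this rate was not checked. The 10 libraries come from 4 control groups, and the variable genes were chosen for their spread, so that a marked library is likely among them. Of 38 lists 4 were marked, and of 51 genes 22, of which 20 are among the 25 most variable and 2 among the 20 most abundant.

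Y308F control 1 was marked for the endothelial list, at 4979 TPM against 1462 to 2719 elsewhere, for the arterial endothelial list at 2325 TPM, for Cytl1 at a normalized count of 30273 with 18802 next (CV 0.318, and 0.142 without that library), and for Slpi at 434. Y308F control 2 was marked for the lymphatic endothelial list at 640 TPM and for Nnat at 1969. WT 2 was marked for the heat shock list at 2118 TPM, Y198F control 1 for Fosb at 1612 and Y198F control 2 for Mylk4 at 602.

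WT 3 was marked for 17 genes. In normalized counts, genes of lipid synthesis and its control stood at 46628 for Fasn, 111751 for Scd1, 10605 for Thrsp, 2703 for Elovl6, 8003 for Gpd1, 10213 for Dgat2, 6812 for Pcx and 1535 for Mlxipl. Other genes were Lep at 2326, Fabp5 at 1352, Mrap at 879, Sh2b2 at 370.0, Arxes2 at 468, Tmem45b at 652, Tmem179 at 671 and A530016L24Rik at 1287. The ferritin gene Fth1, among the 20 most abundant, stood at 46209 with 36002 next.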

How the results depend on the processing

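Of the recomputed values, 347 stayed within the spread between libraries (counts within 1.5 times) and 29 did not. Summed levels depend on what enters the TPM total. With mitochondrial and ribosomal RNA genes left out, the median sums were 47286 TPM for contractile, 2955 for fibroblast and 13.7 for pancreatic acinar genes. Over nuclear protein-coding genes alone, a choice made after seeing the data, they were 77404 for contractile, 5263 for endothelial, 4876 for fibroblast, 3193 for white adipocyte, 495 for Schwann cell, 224 for macrophage and 22.6 for acinar genes, and the means of single genes were 21340 for Acta2, 10428 for Myh11 and 3.29 for Panx1. The longest transcript as length gave 3057 for fibroblast genes. With lengths counted over bases free of other genes, also added after seeing the data, Tagln averaged 204 TPM. With a minimum mean of 10, 1547 genes had a CV above 0.5 and 6 of the 25 most variable genes were still among the leading 25; a minimum of 200 gave 208 genes and all 13 controls gave 780. By the SD of log2 values, 11 of the 25 remained. Leaving out each library in turn kept 9 (without WT 3) to 22 of the 25, and gave a median CV of endothelial genes of 0.172 (without Y308F control 1) to 0.394. No paired analysis was possible because no groups were contrasted. Genes at 3 or fewer counts in every library cannot be told from absent at this depth; for Mt2, exon overlap is a further limit.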

Other observations

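Over the 13 white adipocyte genes, normalized counts in WT 3 were a median of 1.68 times those in Y308F control 2, the next highest library for fat, from 0.600 for Adrb3 to 4.94 for Lep; Adipoq stood at 1.29 times and Fabp4 at 1.49 times. This pair of libraries was chosen after the values were seen, and with 1 library on each side the ratios have no replicate check.

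Interferon-stimulated genes, which report on antiviral signalling, were at a low level, with a median sum of 105 TPM and a range of 74.3 to 181. Of the 9 genes measured, 4 were highest in Y198F control 2 and 4 in S205A control 4, against 7.66% and 11.3% of all genes; Ifit3 had normalized counts of 1164 and 1087 there, against a median of 674. Genes of cell division summed to 6.93 TPM, from 3.09 to 12.4, and Mki67, a marker of cycling cells, averaged 1.56 TPM with its highest normalized count, 228, in Y308F control 1.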
